A study of Mus musculus with 9 samples.

Results

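Tumor-adjacent liver (TAL) of Scd2f/f;CC mice was set against liver of untreated Scd2f/f mice, a pair that uses 6 of the 9 samples and takes, for every one of the 16755 genes listed, the log2 ratio of the authors' group means. Scd2f/f;CC mice carry loxP sites around an exon of Scd2 and a Cre recombinase driven by the promoter of Col1a1, a collagen gene that hepatic stellate cells (HSC) and portal fibroblasts express, so that deletion of Scd2 is aimed at those cells and not at the rest of the liver. The 3 Scd2f/f;CC mice had received diethyl nitrosamine (DEN), a hepatic carcinogen, at 2 weeks of age (10 mg/kg) and, from 6 weeks on, Western alcohol diet (WAD), which supplies lard, cholesterol and ethanol as liquid food, for 4 months by the sample labels, while the study's methods give another duration. The 3 control mice had floxed Scd2 without Cre and are labelled untreated, and they were taken as such, although the protocol text attached to their samples is that of the DEN and WAD mice. Their own age and diet at sampling were not separately stated. A further group of 3 Scd2f/f mice without Cre had received DEN and WAD, and its values against the same control livers are given beside those of Scd2f/f;CC TAL. All 9 samples are from C57BL/6 mice and are labelled as liver tissue, and TAL is the study's name for tissue next to visible tumors that held microscopic ones. According to the study's methods, the mice were male. Genotype and DEN with WAD differed together between Scd2f/f;CC TAL and control liver, so their parts in a difference cannot be told apart.

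SCD enzymes place the double bond that turns saturated fatty acids into monounsaturated ones. Hepatocytes make most of the liver's lipid, and they lower their own sterol synthesis when cholesterol is supplied, through the transcription factor SREBP2. HSC store retinoids at rest and produce collagen when activated. Kupffer cells are the resident macrophages, and monocyte-derived macrophages join them in injured liver.

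Each value below is the authors' mean of upper-quartile normalised read counts in a group. The deposited table gives 1 mean per group for these comparisons and neither a spread over mice nor the sequencing depth of a library, so no difference here was tested against replicate error and no interval is given. The authors' own p-values, for Scd2f/f TAL against control liver and for the TAL groups against each other, were not used. Means are listed in the order control liver, Scd2f/f TAL and Scd2f/f;CC TAL, and a log2 ratio without another group is that of Scd2f/f;CC TAL to control liver. The words higher and lower describe group means, and a gene was counted at a ratio of 2-fold or more. Means were compared between groups within a gene and not between genes, and in bulk tissue fewer cells of a type cannot be told apart from less RNA per cell. A gene near its lowest listed value in one group could pass the filter on low means through the other group, so counts over gene lists are descriptions.

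Most genes had close means in Scd2f/f;CC TAL and control liver. Among 11696 genes at a mean of 1 or more over both groups, 491 (4.20%) were 2-fold or more higher in Scd2f/f;CC TAL and 311 (2.66%) were 2-fold or more lower. The median log2 ratio was 0.040, and 81.7% of the genes lay within 1.5-fold of control liver. Over the same genes, Scd2f/f TAL was 2-fold or more higher than control liver for 661 (5.65%) and lower for 368 (3.15%), with a median log2 ratio of 0.020. Both comparisons share the control livers, so a deviation of those 3 samples enters both.

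The tissue had the markers of liver in all 3 groups. Alb, the main plasma protein of hepatocytes, had a mean of 21300, 20900 and 22700 (control liver, Scd2f/f TAL, Scd2f/f;CC TAL), and the 16 hepatocyte identity genes all stayed within 2-fold in both comparisons, with a median log2 ratio of 0.07 in Scd2f/f;CC TAL and -0.03 in Scd2f/f TAL. Control liver also held skeletal muscle transcripts. The 15 muscle genes looked up after their values were seen had means of 1.05 to 33.3 in control liver and 0.0348 to 0.45 in Scd2f/f TAL. In Scd2f/f;CC TAL they ran from 0.0349 to 0.609, and 11 of them stood at the lowest value listed for that group. Myh4, a fast muscle myosin, had a mean of 11.5 in control liver, and Ttn, the giant sarcomere protein, had 33.3. How many of the control livers carried these transcripts cannot be read from a group mean. Without these genes, 298 genes instead of 311 were 2-fold or more lower in Scd2f/f;CC TAL, and the count of higher genes was again 491. A ribosomal RNA row took 9.30%, 2.40% and 0.827% of the summed means (control liver, Scd2f/f TAL, Scd2f/f;CC TAL), and its part in the other differences was not tested.

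**Figure D1:**
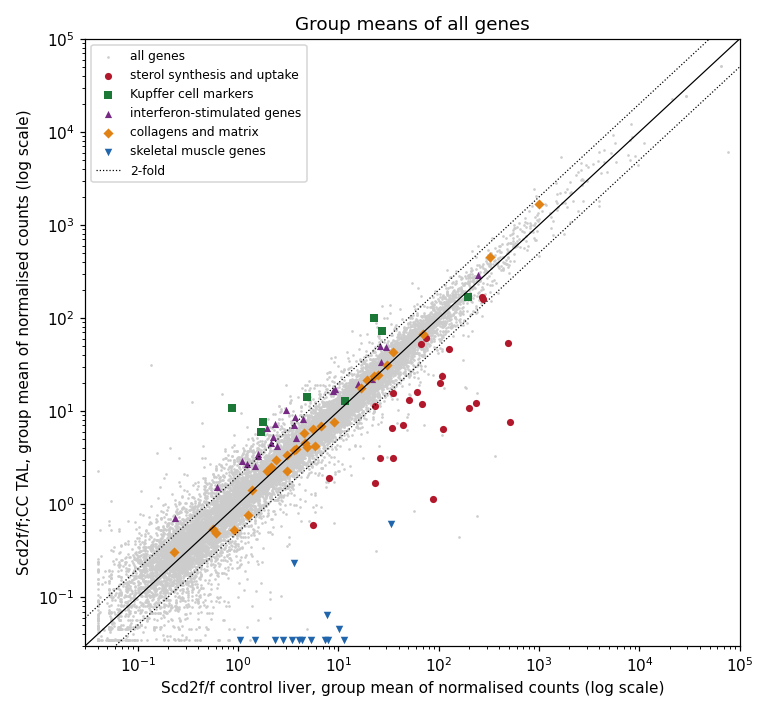
Each grey point is a gene, with its group mean in Scd2f/f control liver on the x axis and in Scd2f/f;CC TAL on the y axis, both on log scales; the solid line marks equal means and the dotted lines a 2-fold difference. Sterol genes lie below the line, Kupffer cell markers and interferon-stimulated genes mostly above it, collagens along it, and the 15 skeletal muscle genes far below it, 11 of them at the lowest value of Scd2f/f;CC TAL.

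Scd2 itself was low in bulk liver of all groups. Its mean was 2.46, 6.47 and 1.87 (control liver, Scd2f/f TAL, Scd2f/f;CC TAL), so that Scd2f/f;CC TAL stood below control liver with a log2 ratio of -0.40 while Scd2f/f TAL stood above it with a log2 ratio of 1.40. Scd1, the main SCD of hepatocytes, which Cre did not target, was far higher in both TAL groups. Its mean was 1670 in control liver and 5310 in Scd2f/f;CC TAL (log2 ratio 1.67), and it was 6360 in Scd2f/f TAL. The 2 SCD genes listed therefore stood on different sides of control liver in Scd2f/f;CC TAL.

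**Figure D2:**
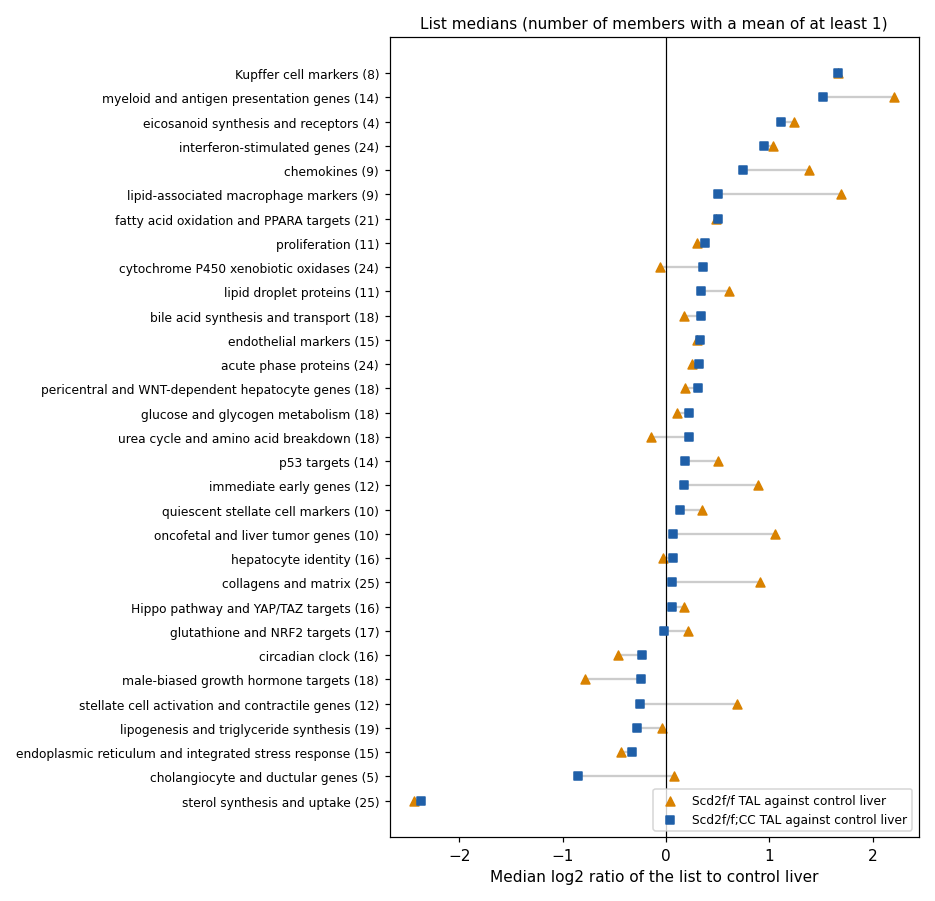
For each gene list with at least 3 members at a mean of at least 1 (their number in parentheses), the x axis gives the median log2 ratio to control liver of Scd2f/f;CC TAL (squares) and Scd2f/f TAL (triangles), joined by a line. Sterol genes are lowest in both, at -2.37 and -2.44, while collagens and matrix (0.06 and 0.91) and oncofetal genes (0.07 and 1.05) are near 0 only for the squares. Lists were chosen with earlier results of these data known.

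The genes of sterol synthesis and uptake had the lowest median ratio of the lists. All 25 listed were measured, and all 25 were lower in Scd2f/f;CC TAL than in control liver, 21 of them by 2-fold or more, with a median log2 ratio of -2.37. In Scd2f/f TAL, 20 of the 25 were 2-fold or more lower and the median was -2.44. Among its lowest ratios, 5 stand among the 15 lowest of all genes at or above a mean of 5, namely Sqle, Idi1, Cyp51, Msmo1 and Fdps.

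The enzymes at the head of the mevalonate pathway were lower. Hmgcs1, which joins acetyl units into HMG-CoA, had a mean of 488, 64.8 and 53.4 (control liver, Scd2f/f TAL, Scd2f/f;CC TAL; log2 ratio -3.19). Idi1, which isomerizes the isoprene unit, had a mean of 510, 9.12 and 7.63 (control liver, Scd2f/f TAL, Scd2f/f;CC TAL), so that its mean was 66.8-fold lower in Scd2f/f;CC TAL. Both TAL means of each of these enzymes lay close together and far from control liver.

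Enzymes of the later steps followed. Sqle, which oxidizes squalene and commits the pathway to sterols, had means of 87.3, 2.14 and 1.14 in control liver, Scd2f/f TAL and Scd2f/f;CC TAL (log2 ratio -6.26). Cyp51, which removes a methyl group from lanosterol, had means of 238, 17 and 12.2 (log2 ratio -4.29). Msmo1, which acts on the next methyl groups, had means of 202, 10.6 and 10.7 (log2 ratio -4.24) and was among the 10 genes whose ratios in the TAL groups differed least in proportion, among genes at or above a mean of 5 over the 3 groups and 2-fold or more from control liver in Scd2f/f;CC TAL. Fdps, which makes farnesyl diphosphate, had 111, 8.41 and 6.34 (log2 ratio -4.13).

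Late enzymes, regulators and exporters were less uniform. Of the 4 members within 2-fold, Ebp and Sc5d, enzymes of the last steps, had log2 ratios of -0.28 and -0.68 in Scd2f/f;CC TAL. Insig1, which retains SREBP in the endoplasmic reticulum, had a log2 ratio of -1.47, and its relative Insig2, named after its values were seen, was higher, with means of 40.8, 124 and 126 (log2 ratio 1.63). Abcg5 and Abcg8, which form the pump that exports sterols into bile, were higher as well. Abcg5 had means of 28.3, 59.2 and 99 (control liver, Scd2f/f TAL, Scd2f/f;CC TAL; log2 ratio 1.81), and Abcg8 had 32.7, 67.6 and 114 (log2 ratio 1.80).

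**Figure D3:**
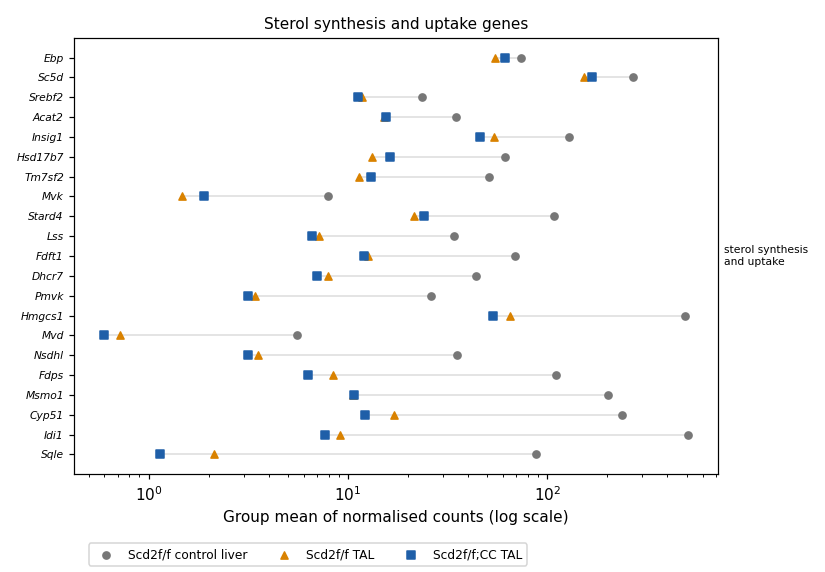
Group means of 21 of the 25 sterol synthesis and uptake genes in Scd2f/f control liver (circles), Scd2f/f TAL (triangles) and Scd2f/f;CC TAL (squares), on a log scale. The control mean is the highest of the 3 for each gene shown, and the means of the TAL groups lie close together, as for Msmo1 at 10.6 and 10.7 against 202.

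The promoters of these genes are shown because the members stood on one side of control liver together. RefSeq promoters on GRCm38.p6, running from 250 bases before to 50 bases after each start, were matched for 17 of the 25 genes. The CCAAT box (CCAAT on either strand), which the factor NF-Y binds and which neighbours SREBP sites in known sterol promoters, was found in 16 of the 17 (94.1%), against 41.06% of 27025 genes with a promoter. The sterol regulatory element of the letters TCACNCCAC was found in 1 of the 17, against 1.44% of all genes. These are matches of letters in a short window and were not tested. The 150 bases before the start are given for the promoters of Hmgcs1 (chr13:119690201-119690350 on the plus strand), Msmo1 (chr8:64733579-64733728 on the minus strand) and Idi1 (chr13:8885456-8885605 on the plus strand), with CCAAT or its reverse complement in capitals and, in Hmgcs1, also the TCACNCCAC match near the left end.
Hmgcs1: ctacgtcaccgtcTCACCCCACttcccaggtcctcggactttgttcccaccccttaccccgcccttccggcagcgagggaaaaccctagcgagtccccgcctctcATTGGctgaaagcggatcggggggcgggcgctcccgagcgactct
Msmo1: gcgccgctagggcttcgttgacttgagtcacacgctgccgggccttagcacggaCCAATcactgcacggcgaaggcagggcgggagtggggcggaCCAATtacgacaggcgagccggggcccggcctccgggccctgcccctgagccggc
Idi1: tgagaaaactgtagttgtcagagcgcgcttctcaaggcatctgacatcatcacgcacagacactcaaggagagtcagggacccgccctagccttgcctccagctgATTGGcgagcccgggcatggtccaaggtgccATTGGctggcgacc

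Most genes of fatty acid synthesis did not share the direction of Scd1. Of 20 lipogenesis genes found, 19 reached a mean of 1. In Scd2f/f;CC TAL, Scd1 was the only member 2-fold or more higher and 4 were 2-fold or more lower, with a median log2 ratio of -0.28, and in Scd2f/f TAL 3 were higher and 3 lower with a median of -0.04. Fasn, the fatty acid synthase, had means of 243, 150 and 116 (control liver, Scd2f/f TAL, Scd2f/f;CC TAL; log2 ratio -1.07). Acly, which supplies its acetyl-CoA, had 139, 52.2 and 63.6 (log2 ratio -1.13). Lpin1, a phosphatidate phosphatase and coactivator, had the lowest ratio of the list with means of 184, 48.1 and 18.3 (log2 ratio -3.33). Thrsp, a lipogenic regulator, had 107, 19.5 and 25.6 (log2 ratio -2.06). Srebf1, the gene of the lipogenic SREBP, was instead 60.3 in control liver and 108 in Scd2f/f;CC TAL (log2 ratio 0.84).

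Fatty acid oxidation genes were higher throughout. All 21 PPARA target and oxidation genes at or above a mean of 1 had a positive log2 ratio in Scd2f/f;CC TAL, with a median of 0.50, and 6 of them were 2-fold or more higher; in Scd2f/f TAL the same count was 6 and the median 0.48. Cyp4a10, a fatty acid omega-hydroxylase, had means of 54.8, 217 and 236 (control liver, Scd2f/f TAL, Scd2f/f;CC TAL; log2 ratio 2.11). Cyp4a14, its relative, had 32.9, 158 and 137 (log2 ratio 2.06). Ehhadh, of peroxisomal oxidation, had 121, 255 and 328 (log2 ratio 1.44). The mitochondrial enzymes were closer to control liver, as shown by Cpt1a, which admits fatty acids to mitochondria, with a log2 ratio of 0.45. Cyp4a10, Cyp4a14 and Acot1 lie in gene clusters with near-identical members, and how reads were divided among these is uncertain.

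Lipid droplet proteins were partly higher. Of 14 found, 11 reached a mean of 1, and 2 of these were 2-fold or more higher in Scd2f/f;CC TAL (median log2 ratio 0.34) and 2 in Scd2f/f TAL (median 0.61). Plin2, the droplet coat protein of hepatocytes, had means of 130, 269 and 273 (control liver, Scd2f/f TAL, Scd2f/f;CC TAL; log2 ratio 1.07). Plin4 had 3.36, 22.6 and 13 (log2 ratio 1.95). Cidec, which fuses droplets, stood on different sides of its control mean of 8.85, at 14.3 for Scd2f/f TAL and at 5.56 for Scd2f/f;CC TAL. Cd36, a fatty acid importer named after its values were seen, had 23.7, 138 and 88.5 (log2 ratio 1.90), and Lpl, lipoprotein lipase, had 16.3, 83.6 and 66.2 (log2 ratio 2.02).

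Bile acid genes had a median log2 ratio of 0.34 in Scd2f/f;CC TAL over 18 genes, with 3 of them 2-fold or more higher and 1 lower, against 4 higher, 2 lower and a median of 0.17 in Scd2f/f TAL. Cyp7a1, the rate-limiting enzyme of bile acid synthesis, had means of 217, 78.2 and 147 (control liver, Scd2f/f TAL, Scd2f/f;CC TAL; log2 ratio -0.56), so that only the mean of Scd2f/f TAL was 2-fold lower. Nr0b2, the repressor SHP, had 4.71, 10.4 and 14.7 (log2 ratio 1.64). Slco1a4, an uptake transporter, had 50.3, 7.74 and 19.7 (log2 ratio -1.35). Slc10a2, a bile acid carrier named after its values were seen, had 71, 10.2 and 7.15 (log2 ratio -3.31).

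The largest ratio of any gene with a mean of at least 5 belonged to a cytochrome P450. Cyp2b9, a female-predominant enzyme of mouse liver, had means of 0.135, 6.08 and 31.1 (control liver, Scd2f/f TAL, Scd2f/f;CC TAL; log2 ratio 7.85). Cyp2a4, another such enzyme, came next with 0.348, 32.6 and 12.6 (log2 ratio 5.18), in the opposite order between the TAL groups. Cyp2b13 had 2.28 in Scd2f/f;CC TAL against 0.419 in Scd2f/f TAL, and control liver was listed at its lowest value, 0.04. Cyp2c38 and Cyp2c39 had log2 ratios of 2.17 and 2.30. Over the 24 xenobiotic P450 genes at or above a mean of 1, 5 were 2-fold or more higher in Scd2f/f;CC TAL and 2 lower, with a median log2 ratio of 0.36, against 5 higher, 3 lower and a median of -0.06 in Scd2f/f TAL. Cyp3a11, the main drug-metabolizing P450 of mouse liver, was among the lower ones, with 3990, 2580 and 1830 (log2 ratio -1.12). Many of these genes have near-identical copies, and how their reads were divided is uncertain.

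Male-biased growth hormone targets had medians below control liver, less so in Scd2f/f;CC TAL. Among 18 genes, Scd2f/f;CC TAL was 2-fold or more lower for 3 and higher for 1, with a median log2 ratio of -0.24, against 5 lower, 1 higher and a median of -0.78 in Scd2f/f TAL. Serpina1e had means of 3990, 784 and 1590 (control liver, Scd2f/f TAL, Scd2f/f;CC TAL; log2 ratio -1.33). Ugt2b38, a glucuronosyltransferase, had 56.3, 6.25 and 23 (log2 ratio -1.29) and was among the 10 genes in which the TAL groups differed most, among genes at or above a mean of 5 over the 3 groups and 2-fold or more from control liver in Scd2f/f;CC TAL. Elovl3, a fatty acid elongase, was the member 2-fold or more higher, at 13.7, 34.3 and 73.2 (log2 ratio 2.42), and 6 of the 18 had a positive log2 ratio, among them Mup1 with 1470, 1370 and 2830 (log2 ratio 0.94). Among the major urinary proteins, Mup7 had 11000, 3430 and 7640 (log2 ratio -0.53), while Mup9 had 887, 630 and 2440 (log2 ratio 1.46), Mup18 had 66.5, 18.3 and 174 (log2 ratio 1.39) and Mup8 had 12.5, 9.7 and 37.2 (log2 ratio 1.57). Mup genes are nearly identical in sequence, so the division of their reads is uncertain.

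Other hepatocyte programmes were close to control liver in Scd2f/f;CC TAL. None of the 18 urea cycle and amino acid genes was 2-fold higher or lower, and the median log2 ratio was 0.22. In Scd2f/f TAL 1 was lower, with a median of -0.15, and each of the 18 had a higher mean in Scd2f/f;CC TAL than in Scd2f/f TAL. Tat, tyrosine aminotransferase, was that gene, with means of 499, 181 and 305 (control liver, Scd2f/f TAL, Scd2f/f;CC TAL). Of 18 pericentral and WNT-dependent genes, 3 were 2-fold or more higher in Scd2f/f;CC TAL and none lower (median 0.31), against 2 higher in Scd2f/f TAL (median 0.18). Glul, glutamine synthetase, had 546, 704 and 675 (log2 ratio 0.31). Axin2, a direct WNT target, had 4.05, 4.61 and 6.8 (log2 ratio 0.75). Oat, ornithine aminotransferase, had 244, 441 and 593 (log2 ratio 1.28).

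Among 18 glucose and glycogen genes, 3 were 2-fold or more higher in Scd2f/f;CC TAL and 5 in Scd2f/f TAL, with medians of 0.22 and 0.11. The 3 were the hexokinases Hk2 and Hk3 and G6pdx, which opens the pentose phosphate pathway, with log2 ratios of 1.36, 1.60 and 1.24. G6pc, which releases glucose, had means of 71.2, 54.2 and 136 (control liver, Scd2f/f TAL, Scd2f/f;CC TAL; log2 ratio 0.93). Among 17 glutathione and NRF2 target genes at or above a mean of 1, Scd2f/f;CC TAL was 2-fold or more higher for 1 and lower for 2 (median -0.02), and 15 of them had a lower mean there than in Scd2f/f TAL, where 2 were higher and 1 lower (median 0.21). Hmox1, heme oxygenase, had 4.25, 17.4 and 11.1 (log2 ratio 1.39). Srxn1, sulfiredoxin, had 114, 26.4 and 17.7 (log2 ratio -2.69). Gsta1, a glutathione transferase, had 2.82, 10 and 2.79, so that it stood above control liver in Scd2f/f TAL and not in Scd2f/f;CC TAL.

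Acute phase proteins differed in direction. Of 24 genes, 6 were 2-fold or more higher in Scd2f/f;CC TAL and 2 lower, with a median log2 ratio of 0.32, against 7 higher, 2 lower and a median of 0.25 in Scd2f/f TAL. The 2 lower ones were the metal-binding metallothioneins, Mt1 with means of 185, 22.1 and 17.7 (control liver, Scd2f/f TAL, Scd2f/f;CC TAL; log2 ratio -3.39) and Mt2 with 108, 7.72 and 5.59 (log2 ratio -4.27). Saa2, a serum amyloid protein, had 8.95, 56.4 and 33.5 (log2 ratio 1.90). Lcn2, lipocalin, had 5.21, 41.8 and 14.1 (log2 ratio 1.44).

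Several chaperones of the endoplasmic reticulum were lower in both TAL groups. Among 15 stress response genes at or above a mean of 1, Scd2f/f;CC TAL was 2-fold or more lower for 5 and higher for 1 (median -0.33), against 5 lower and 2 higher in Scd2f/f TAL (median -0.44). Hspa5, the chaperone BiP, had means of 1010, 437 and 464 (control liver, Scd2f/f TAL, Scd2f/f;CC TAL; log2 ratio -1.12). Creld2 had 48.4, 8.93 and 8.55 (log2 ratio -2.50). Atf5, a transcription factor of the integrated stress response, was the higher one, with 43.2, 107 and 97.8 (log2 ratio 1.18). Chac1 stood at 1.06 in control liver and 1.34 in Scd2f/f;CC TAL, against 4.01 in Scd2f/f TAL.

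Kupffer cell markers had the highest median ratio of the lists with at least 3 members. Of 8 Kupffer cell markers, 6 were 2-fold or more higher in Scd2f/f;CC TAL, with a median log2 ratio of 1.66, and the count and median in Scd2f/f TAL were the same. Clec4f, a lectin of Kupffer cells, had means of 27.3, 71.2 and 71.7 (control liver, Scd2f/f TAL, Scd2f/f;CC TAL; log2 ratio 1.39), and was among the 10 genes, within the same limits as Msmo1, whose ratios differed least between the TAL groups. Marco, a scavenger receptor, had 0.870, 14.6 and 10.7 (log2 ratio 3.62). Cd5l, a protein secreted by macrophages, had 22.9, 114 and 99 (log2 ratio 2.11). Timd4, a receptor for dying cells on resident Kupffer cells, had 1.70, 4.81 and 5.94 (log2 ratio 1.80). C6 and Cd163 were within 2-fold, and C6, a complement component, is also made by hepatocytes.

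Myeloid and antigen presentation genes were higher too, and each stood lower in Scd2f/f;CC TAL than in Scd2f/f TAL. Of 17 found, 14 reached a mean of 1, and 13 of these were 2-fold or more higher in Scd2f/f;CC TAL (median log2 ratio 1.52), against 14 in Scd2f/f TAL (median 2.21). All 14 had a lower mean in Scd2f/f;CC TAL than in Scd2f/f TAL, a difference that was not tested here. Adgre1, which encodes F4/80, had means of 5.70, 19 and 17.7 (control liver, Scd2f/f TAL, Scd2f/f;CC TAL; log2 ratio 1.63). Ptprc, which encodes CD45 of all leukocytes, had 5.82, 27.2 and 19 (log2 ratio 1.71). The MHC class II genes lay between control liver and Scd2f/f TAL, H2-Ab1 with 6.48, 37.4 and 16.4 (log2 ratio 1.34) and Cd74, the invariant chain, with 16.1, 94.9 and 46.8 (log2 ratio 1.54). Cybb, the phagocyte oxidase, had the largest ratio of the list, with 5.11, 31.2 and 21.1 (log2 ratio 2.05).

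Lipid-associated macrophage markers stood further from each other between the TAL groups, by their medians, than the other immune lists. Of 13 found, 9 reached a mean of 1, and Scd2f/f;CC TAL was 2-fold or more higher for 4 and lower for 2 (median 0.50), against 6 higher and 1 lower in Scd2f/f TAL (median 1.69). Mmp12, a macrophage elastase, had means of 0.157, 14.9 and 3.52 (control liver, Scd2f/f TAL, Scd2f/f;CC TAL; log2 ratio 4.49). Gpnmb, a lysosomal glycoprotein of these cells, had 0.0937, 8.98 and 0.638 (log2 ratio 2.77), and Trem2, their lipid receptor, had 0.253, 1.80 and 0.459 (log2 ratio 0.86); both were below the filter on low means. Cd68, a lysosomal protein of all macrophages, had 1.64, 8.87 and 5.66 (log2 ratio 1.79). Cd63, a tetraspanin, had 1.99, 6.4 and 1.77 and Cd9, another, had 6.83, 17 and 8.54, so that both were near control liver only in Scd2f/f;CC TAL. Spp1, osteopontin, which bile duct cells also make, stood below control liver, with 52.3, 45.1 and 14.8 (log2 ratio -1.82).

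**Figure D4:**
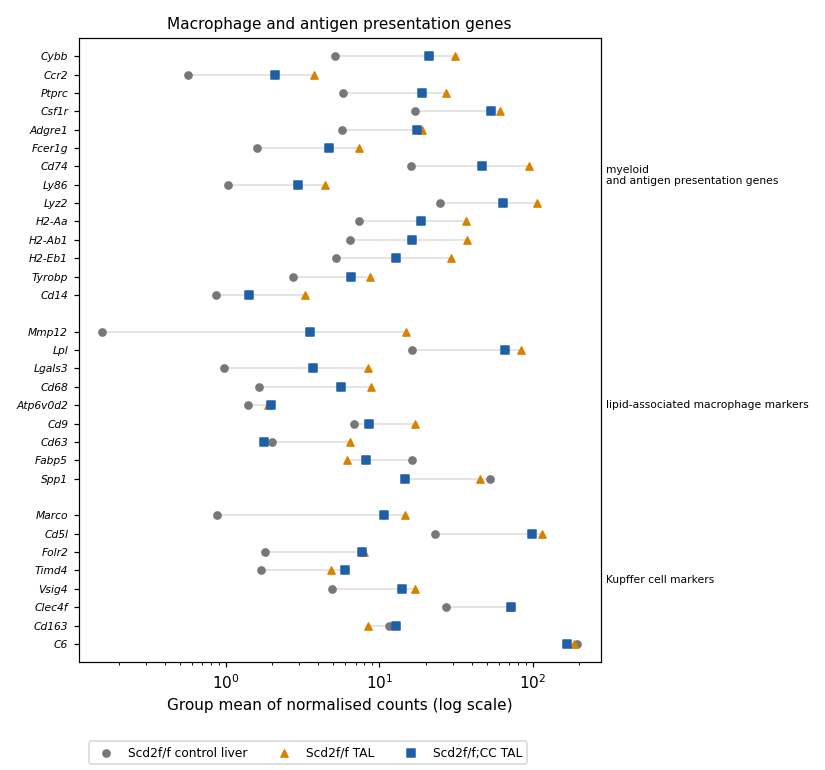
Group means of Kupffer cell, lipid-associated macrophage, and myeloid and antigen presentation genes at or above a mean of 1, in Scd2f/f control liver (circles), Scd2f/f TAL (triangles) and Scd2f/f;CC TAL (squares), on a log scale. Squares and triangles overlap for most Kupffer cell markers such as Clec4f (71.7 and 71.2), while squares lie between circles and triangles for the antigen presentation genes such as Cd74 (16.1, 46.8 and 94.9).

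Many chemokines and all lymphocyte genes had low means. Of 18 chemokines found, 9 reached a mean of 1, and Scd2f/f;CC TAL was 2-fold or more higher for 4 and lower for 2 (median 0.74), against 5 higher and none lower in Scd2f/f TAL (median 1.38). Cxcl10, an interferon-induced attractant of T cells, had means of 0.739, 5.97 and 3.94 (control liver, Scd2f/f TAL, Scd2f/f;CC TAL; log2 ratio 2.41). Cxcl1, a neutrophil attractant, had 11.8, 17.5 and 5.04 (log2 ratio -1.23). None of the 17 lymphocyte genes found reached a mean of 1. Over all 16755 rows, where Scd2f/f;CC TAL was 2-fold or more higher for 6.41% and lower for 4.64%, 9 of these 17 were higher and none lower (median log2 ratio 1.04), and in Scd2f/f TAL, with 9.37% of all rows higher and 4.69% lower, 14 were higher (median 1.92). Cd3e, a chain of the T cell receptor complex, had 0.226, 1.25 and 0.545, and Cd8a had 0.235, 1.05 and 0.302. Of 6 neutrophil genes, 4 were 2-fold or more higher in Scd2f/f;CC TAL and 6 in Scd2f/f TAL over all rows. S100a9 had 0.355, 1.94 and 1.59.

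Interferon-stimulated genes were higher in both TAL groups, with close medians. All 24 at or above a mean of 1, of 25 found, had a positive log2 ratio in Scd2f/f;CC TAL, with a median of 0.95, and 11 were 2-fold or more higher; in Scd2f/f TAL 12 were higher and the median was 1.03. Rsad2, which encodes the antiviral protein viperin, had means of 2.99, 10.1 and 10.2 (control liver, Scd2f/f TAL, Scd2f/f;CC TAL; log2 ratio 1.77). Gbp2, a guanylate-binding protein, had 1.96, 9.02 and 6.65 (log2 ratio 1.76). Ifit1, which binds foreign RNA, had 3.73, 8.62 and 8.55 (log2 ratio 1.20). Iigp1, with the highest mean of the list, had 245, 311 and 287 (log2 ratio 0.23). These genes are also expressed by macrophages, whose markers were higher in the same samples, and the part of either cell in the ratio was not tested.

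Promoters of these genes are shown for the same reason as those of the sterol genes. Of the 25, 18 were matched to a RefSeq promoter on GRCm38.p6, and 12 of these (66.7%) held the interferon-stimulated response element written as GAAA, NN and GAAA in a row on either strand, against 3.99% of all genes with a promoter. The 150 bases before the start are given for the promoters of Ifit1 (chr19:34640739-34640888 on the plus strand), Rsad2 (chr12:26456453-26456602 on the minus strand) and Gbp2 (chr3:142620513-142620662 on the plus strand), with each match in capitals, here as the reverse complement. Ifit1 held 2 matches, and the other 2 held 1 each.
Ifit1: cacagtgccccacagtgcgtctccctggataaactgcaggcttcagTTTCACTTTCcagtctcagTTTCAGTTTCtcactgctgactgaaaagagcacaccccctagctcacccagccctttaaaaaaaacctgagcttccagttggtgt
Rsad2: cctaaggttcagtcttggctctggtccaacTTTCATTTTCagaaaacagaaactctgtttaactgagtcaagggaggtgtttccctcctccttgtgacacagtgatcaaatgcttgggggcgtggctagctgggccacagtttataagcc
Gbp2: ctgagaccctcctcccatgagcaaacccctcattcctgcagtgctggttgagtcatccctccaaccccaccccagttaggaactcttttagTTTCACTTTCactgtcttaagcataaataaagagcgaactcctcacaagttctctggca

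Collagen and matrix genes were at the level of control liver in Scd2f/f;CC TAL. Of 29 found, 25 reached a mean of 1, and none was 2-fold higher or lower, with a median log2 ratio of 0.06 against 0.040 over all genes. In Scd2f/f TAL, 10 of the 25 were 2-fold or more higher, with a median of 0.91. Col1a1, the gene whose promoter drives Cre, had means of 4.69, 19.6 and 4.51 (control liver, Scd2f/f TAL, Scd2f/f;CC TAL; log2 ratio -0.06). Col1a2, its partner chain, had 6.65, 21.7 and 6.93 (log2 ratio 0.06). Col3a1, the other main fibrillar collagen, had 19.3, 58.6 and 21.6 (log2 ratio 0.16). The basement membrane collagen Col4a1 had 25.1, 39.9 and 24.7 (log2 ratio -0.02). Fbn1, fibrillin, had 3.58, 9.02 and 3.83 (log2 ratio 0.10). Fn1, fibronectin, and Col18a1, which hepatocytes also make, were the members with the highest means, and both stood highest in Scd2f/f;CC TAL, Fn1 at 1000, 1280 and 1660 (log2 ratio 0.73) and Col18a1 at 323, 379 and 458 (log2 ratio 0.50). Thus 23 of the 25 had a lower mean in Scd2f/f;CC TAL than in Scd2f/f TAL, all but these 2. The part of the muscle tissue in control liver in the ratios to control liver was not tested.

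Genes of stellate cell activation and contraction were near or below control liver. Of 19 found, 12 reached a mean of 1, and Scd2f/f;CC TAL was 2-fold or more higher for 1 and lower for 3 (median -0.25), against 4 higher and 1 lower in Scd2f/f TAL (median 0.69). All 12 had a lower mean in Scd2f/f;CC TAL than in Scd2f/f TAL. Tagln, an actin-binding protein of contractile cells, had means of 7.85, 3.79 and 1.75 (control liver, Scd2f/f TAL, Scd2f/f;CC TAL; log2 ratio -2.17). Des, desmin, had 4.25, 3.29 and 1.98 (log2 ratio -1.10). Acta2, the smooth muscle actin of activated HSC, had 1.27, 1.20 and 0.388, below the filter. Vim, vimentin, had 9.94, 20.1 and 9.83 (log2 ratio -0.02). Timp1, an inhibitor of matrix proteases, had 0.0974, 0.645 and 0.0484. Tagln, Des, Acta2 and Tpm1 are also genes of muscle cells, and control liver held skeletal muscle transcripts, whose part in these ratios was not tested. Lgals1, galectin, was the higher one, with 4.45, 14.4 and 8.93 (2.01-fold).

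Markers of quiescent HSC were near control liver. Of 10, none was 2-fold or more higher and 1 was lower in Scd2f/f;CC TAL (median 0.13), against 1 higher in Scd2f/f TAL (median 0.35). Lrat, which stores retinol as esters, had means of 15, 19 and 16 (control liver, Scd2f/f TAL, Scd2f/f;CC TAL; log2 ratio 0.09). Reln, reelin, had 73, 89.2 and 71.6 (log2 ratio -0.03).

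Several bile duct genes stood below control liver in Scd2f/f;CC TAL. Of 14 found, 5 reached a mean of 1, and 2 of these, Epcam and Spp1, were 2-fold or more lower (median -0.85), against none lower and 1 higher in Scd2f/f TAL (median 0.08). Epcam, an adhesion protein of ductular cells, had means of 1.97, 1.82 and 0.5 (control liver, Scd2f/f TAL, Scd2f/f;CC TAL; log2 ratio -1.98). The biliary keratins Krt7 and Krt19, below the filter, had 0.652, 0.436 and 0.0892 and 0.746, 0.751 and 0.204, while Krt23 had 0.493, 1.12 and 1.17 (log2 ratio 1.25). Over all 14, Scd2f/f;CC TAL was 2-fold or more lower for 6 and higher for 1 (median -0.51). In Scd2f/f TAL none was lower and 6 were higher (median 0.73). The unfiltered background of 16755 rows had 4.64% beyond 2-fold downward and 6.41% upward for Scd2f/f;CC TAL. For Scd2f/f TAL it had 4.69% and 9.37%. Cd24a, of immature ductular cells, had 1.51, 3.44 and 0.838 (log2 ratio -0.85). Sox9, a transcription factor of duct cells that some hepatocytes also express, was not lower, with a log2 ratio of 0.23. Endothelial markers at or above a mean of 1, 15 of 17 found, were mostly near control liver in both comparisons. None of the 15 was beyond 2-fold in Scd2f/f;CC TAL (median 0.33), and 2 were higher in Scd2f/f TAL (median 0.30). Below the filter, Cd34 had 1.42, 1.23 and 0.485 (log2 ratio -1.55) and Emcn had 0.844, 1.04 and 1.04 (log2 ratio 0.30).

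**Figure D5:**
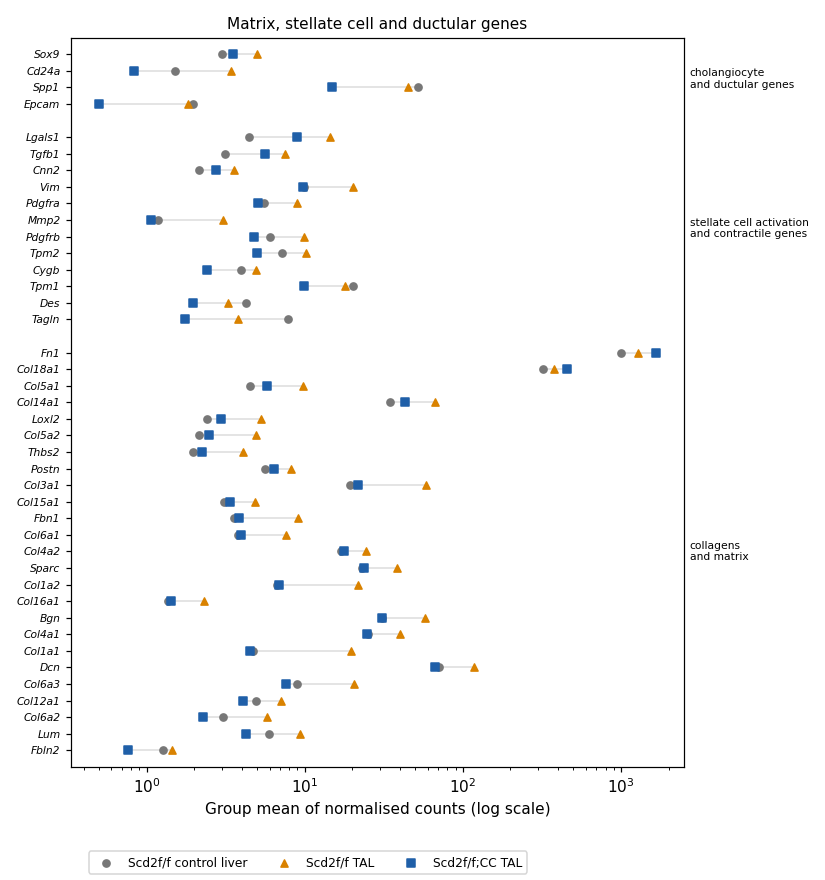
Group means of collagen and matrix, stellate cell activation and contractile, and 4 of the 5 cholangiocyte and ductular genes at or above a mean of 1, in Scd2f/f control liver (circles), Scd2f/f TAL (triangles) and Scd2f/f;CC TAL (squares), on a log scale. Squares lie on or near circles for most collagens, as for Col1a1 at 4.51 and 4.69 with the triangle at 19.6, and to the left of circles for Tagln, Epcam and Spp1.

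Oncofetal and liver tumor genes had a median log2 ratio of 0.07 in Scd2f/f;CC TAL over the 10 at or above a mean of 1, of 18 found, with 2 of them 2-fold or more higher and 1 lower. In Scd2f/f TAL 6 were higher and none lower, with a median of 1.05. The list was chosen with earlier results of these data known, so the medians only describe its members. Cd44, a hyaluronan receptor, had means of 3.30, 21 and 14.6 (control liver, Scd2f/f TAL, Scd2f/f;CC TAL; log2 ratio 2.15). H19, a non-coding RNA, was the other higher one, with 1.44, 2.36 and 3.66 (log2 ratio 1.35), and stood highest in Scd2f/f;CC TAL. Of the 10, 8 had a lower mean in Scd2f/f;CC TAL than in Scd2f/f TAL and 2 a higher one. Ly6d had 1.71, 14.5 and 1.59 (log2 ratio -0.10). Afp, alpha-fetoprotein, had 1.21, 2.47 and 1.61 (log2 ratio 0.41). Myc, the growth-promoting transcription factor, stood below control liver, with 6.84, 6.41 and 2.05 (log2 ratio -1.74).

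Proliferation genes were divided. Of 22 found, 11 reached a mean of 1, and 3 were 2-fold or more higher and 2 lower in both TAL groups, with medians of 0.38 in Scd2f/f;CC TAL and 0.30 in Scd2f/f TAL. With the members under a mean of 1 the medians stood in the other order: over all 22, Scd2f/f;CC TAL was 2-fold or more higher for 8 (median 0.76), against 13 in Scd2f/f TAL (median 1.28), and 16 had a lower mean in Scd2f/f;CC TAL than in Scd2f/f TAL. Among all 16755 rows, 6.41% were higher in Scd2f/f;CC TAL and 9.37% in Scd2f/f TAL. Mki67, a marker of cycling cells, had means of 1.41, 8.32 and 4.86 (control liver, Scd2f/f TAL, Scd2f/f;CC TAL; log2 ratio 1.79). Top2a, a topoisomerase of dividing cells, had 0.963, 3.88 and 2.33 (log2 ratio 1.27). Rrm2, a subunit of ribonucleotide reductase, and Ccne2, a cyclin, were the lower ones, with log2 ratios of -1.31 and -1.14. Of 14 p53 targets at or above a mean of 1, 2 were 2-fold or more higher in Scd2f/f;CC TAL (median 0.18) and 4 in Scd2f/f TAL (median 0.50). Cdkn1a, the inhibitor p21, had 0.464, 4.33 and 1.80 (log2 ratio 1.96), and Gdf15, a stress cytokine, had 2.56, 13.1 and 8.13 (log2 ratio 1.67).

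Among 12 immediate early genes at or above a mean of 1, Scd2f/f;CC TAL was 2-fold or more higher for 3 and lower for 1 (median 0.17), against 5 higher and none lower in Scd2f/f TAL (median 0.89). Nr4a1 had the largest ratio, with means of 0.44, 1.82 and 3.11 (control liver, Scd2f/f TAL, Scd2f/f;CC TAL; log2 ratio 2.82). It was the 1 member with a higher mean in Scd2f/f;CC TAL than in Scd2f/f TAL, while 11 had a lower one. Egr1, a transcription factor of this class, had means of 5.59, 18.1 and 13.4 (log2 ratio 1.26). Klf6 had 6.75, 23.8 and 9.75 (log2 ratio 0.53). Jun had 24, 41.4 and 25 (log2 ratio 0.06).

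Hippo pathway genes were mostly near control liver. Among 16 at or above a mean of 1, Scd2f/f;CC TAL was 2-fold or more higher for 2 and lower for 1 (median 0.06), against 2 higher and none lower in Scd2f/f TAL (median 0.17). Yap1, the coactivator itself, had means of 41.2, 32.2 and 34.4 (control liver, Scd2f/f TAL, Scd2f/f;CC TAL; log2 ratio -0.26), and Wwtr1, which encodes TAZ, had 16.7, 25 and 20.1 (log2 ratio 0.27). Their known targets were divided. Ctgf had 5.40, 4.33 and 2.51 (log2 ratio -1.11), Cyr61 had 5.11, 12.7 and 11.4 (log2 ratio 1.16) and Axl had 9.07, 26.9 and 20.6 (log2 ratio 1.18). Ccnd1, cyclin D1, had 19.2, 23.1 and 17.9, and Birc5, survivin, had 0.262, 0.624 and 0.449.

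Genes of eicosanoid synthesis were mostly low. Of 16 found, 4 reached a mean of 1, and 2 of these were 2-fold or more higher in both TAL groups, with medians of 1.11 in Scd2f/f;CC TAL and 1.24 in Scd2f/f TAL. Over all 16, Scd2f/f;CC TAL was 2-fold or more higher for 5 and lower for 2 (median 0.57). In Scd2f/f TAL 7 were higher and none lower (median 0.81). Without the filter, 6.41% of all 16755 rows passed 2-fold upward and 4.64% downward for Scd2f/f;CC TAL. For Scd2f/f TAL these shares were 9.37% and 4.69%. Pla2g4a, the phospholipase that frees arachidonic acid, had means of 0.793, 3.06 and 2.37 (control liver, Scd2f/f TAL, Scd2f/f;CC TAL; log2 ratio 1.58). Tbxas1, thromboxane synthase, had 0.833, 2.61 and 1.99 (log2 ratio 1.26). Ptgs1, the constitutive cyclooxygenase, had 4.68, 8.38 and 9.16 (log2 ratio 0.97). Ltb4r2, a receptor of arachidonic acid products, had 0.412, 0.308 and 0.580, and Cyp1b1, a P450 of stellate cells, had 0.717, 1.51 and 0.331, both below the filter.

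Outside the lists, the 15 highest ratios among genes at or above a mean of 5 included Cfd, Themis, Adam11, Clec7a, Sulf2 and Cyp4a31. Cfd, the complement factor adipsin, had means of 0.688, 12.9 and 15.1 (control liver, Scd2f/f TAL, Scd2f/f;CC TAL; log2 ratio 4.46). Themis, a signalling protein of developing T cells, had 1.06, 12 and 9.65 (log2 ratio 3.19), beside T cell genes that were all below 1 in control liver. Clec7a, a myeloid receptor for fungal glucans, had 2.54, 21.9 and 11.3 (log2 ratio 2.15). All 15 were also 2-fold or more higher in Scd2f/f TAL. Of the 15 lowest, 14 were also 2-fold or more lower in Scd2f/f TAL, and the exception was the pseudogene Mup-ps19, with 161, 136 and 0.444. Besides 5 sterol genes, 3 skeletal muscle genes (Myh4, Acta1 and Ttn) and Mt2, the lowest held Plet1, with 23.7, 1.29 and 0.310 (log2 ratio -6.26), and the further rows Rn7s6, AY036118, Gm13502 and Gm43305.

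Next, genes at or above a mean of 5 over the 3 groups and 2-fold or more from control liver in Scd2f/f;CC TAL were ordered by how far their ratios in the TAL groups differed. The 10 most alike in proportion came from several lists. Besides Msmo1, Clec4f, Rsad2 and Ccl9, they included Chka, choline kinase, with means of 8.24, 26.2 and 26.1 (control liver, Scd2f/f TAL, Scd2f/f;CC TAL; log2 ratio 1.66), and Crat, carnitine acetyltransferase, with 7.01, 19.2 and 19.1 (log2 ratio 1.45). Acss3 and Syne1 had log2 ratios of 1.17 and 1.07. Within the same limits, the 10 that differed most were Cyp2b9, Mmp12, Plet1, Ugt2b38, Mup8, Mup9, Mup18, Mup-ps19, Rn7s6 and AY036118. Near-identical copies make up several of these rows and Rn7s6 is a short non-coding RNA, so their share of reads is uncertain. AY036118 lies within the ribosomal RNA row on chromosome 17, on the same strand.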

How the data were processed

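RNA was prepared with the TruSeq RNA kit from 9 liver samples in 3 groups of 3. According to the study's methods, the authors quantified reads with Partek E/M on Gencode M3 and normalized counts to the upper quartile; the submitters' processing notes name STAR 2.6.1, Partek 6 and mm10. The deposited table has 16755 rows and 18 columns. The signal used here is the authors' deposited group mean, a least-squares mean of normalised counts with 3 significant digits (whether arithmetic or geometric is not given in the sources used here), so a log2 ratio is uncertain by up to 0.014 from rounding. A further 8 columns hold the authors' p-values, FDR, ratios and fold changes for 2 other comparisons, and were not used. No p-value exists in them for the pair described. The mean of Scd2f/f TAL is listed under both comparisons, and one copy was used. Depth per sample is not given in the sources used here.

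Log2 ratios of means were taken without a pseudocount and counted at 2-fold among 11696 genes at or above a mean of 1 over Scd2f/f;CC TAL and control liver. The 33 lists hold 591 symbols, of which 577 were found. Genes, lists and motifs were chosen with earlier results of these data known. Named genes are the SCD genes found, the genes the study discusses, the 15 highest and 15 lowest ratios among genes at or above a mean of 5, in each list the 3 largest ratios and 2 highest means, and the 10 genes most and 10 least different (in proportion) between TAL groups among those at or above a mean of 5 over the 3 groups and 2-fold or more from control liver in Scd2f/f;CC TAL. Further genes, including other list members, were named after their values were seen, and some members counted in the lists are not reported by name here. Coordinates were checked on GRCm38: 16171 symbols occur in GENCODE M21, where 99.975% overlap their namesake. The counting was tested on simulated data. The alternatives were other filters, fold limits and pseudocounts, centring and protein-coding genes. Python 3.11.15, NumPy, pandas and Matplotlib were used.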

Additional observations from a re-analysis of the deposited data

How the results depend on the processing

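No paired analysis was possible because the deposited columns carry group means and no replicate number, and leaving out a replicate was not possible for the same reason. In Scd2f/f;CC TAL the genes 2-fold or more higher and lower than control liver numbered 1074 and 777 with no filter, 111 and 134 at a mean of at least 10, 261 and 204 with a pseudocount of 1, 1213 and 924 at a fold limit of 1.5, and 164 and 123 at a fold limit of 3. For Scd2f/f TAL these counts were 1570 and 785, 118 and 163, 422 and 231, 1393 and 1053, and 293 and 139. At a mean of at least 10, higher genes made up 45.3% of the genes beyond 2-fold in Scd2f/f;CC TAL, against 61.2% at a mean of at least 1, and 42.0% against 64.2% in Scd2f/f TAL. A pseudocount of 0.1, centring, and protein-coding genes alone kept each count within 1.5 times. Also at a mean of at least 10, the medians of Scd2f/f TAL changed sign for lipid-associated macrophage markers (-0.21) and chemokines (-0.52), where few members are left; in Scd2f/f;CC TAL they were -1.01 and -0.46, and there the Kupffer cell and interferon medians were 0.77 and 0.52. The log2 ratio of Scd2 kept its sign under both pseudocounts and centring. Of 266 named or listed genes beyond 2-fold, 90 came within it with a pseudocount of 1, and none changed sign. Genes with low means are therefore the least certain.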

Other observations

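Several circadian clock genes stood apart from control liver in both TAL groups. Of 17 found, 16 reached a mean of 1, and Scd2f/f;CC TAL was 2-fold or more higher for 3 and lower for 3, against 2 higher and 3 lower in Scd2f/f TAL. Arntl, which encodes the activator BMAL1, had means of 0.471, 2.17 and 3.17 (control liver, Scd2f/f TAL, Scd2f/f;CC TAL; log2 ratio 2.75). Its partner Clock had 22.3, 38.3 and 42.8 (log2 ratio 0.94), and Npas2 had 0.0515, 0.445 and 0.600. Repressors were divided: Nr1d1 had 18.9, 43.1 and 43.9 (log2 ratio 1.22) and Nfil3 had 4.18, 7.96 and 9.11 (log2 ratio 1.12), while Cry1 had a log2 ratio of 0.10. Per1 and Per2 were lower, with log2 ratios of -1.19 and -1.29 in Scd2f/f;CC TAL, as was the clock-controlled gene Ciart, with 5.57, 0.874 and 0.928 (log2 ratio -2.59). The hour at which tissue was taken is not given in the sources used here, and its part was not tested.

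Several further genes, chosen after their values were seen, stood apart from control liver. Fkbp5, a glucocorticoid-induced chaperone, had means of 39.5, 10.8 and 10.2 (control liver, Scd2f/f TAL, Scd2f/f;CC TAL; log2 ratio -1.95). Krt8 and Krt18, the keratins of hepatocytes, had log2 ratios of -1.36 and -1.58. Lepr, the leptin receptor, had 3.27, 7.29 and 12.5 (log2 ratio 1.93), and Igfbp1, which binds insulin-like growth factors, had 12.3, 22.6 and 43.3 (log2 ratio 1.82). Cish, a feedback inhibitor of STAT5 signalling, had 10.8, 7.84 and 2.70 (log2 ratio -2.00).

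A stretch of chromosome 4 stood lower in Scd2f/f;CC TAL as a block. The 14 protein-coding genes at or above a mean of 1 from Unc13b to Gne (4:43058953-44084178 on GRCm38) all had negative log2 ratios to control liver, from -2.14 to -0.41 with a median of -1.06, against a median of -0.07 in Scd2f/f TAL. Clta, clathrin light chain, had 34.5, 39 and 15.8, and Gne and Tpm2, which stand in the oncofetal and the stellate cell lists, lie in it.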
